A study of Rattus norvegicus with 65 samples.

Results

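The hepatocyte identity transcription factors described here are 9 genes, Foxa1, Foxa2, Foxa3, Onecut1, Hnf4a, Cebpa, Hhex, Prox1 and Nr1h4, of 14217 genes with a probe set of their own on the array. They were chosen by name, with earlier results of these data known. Every probe set annotated to only that symbol was taken, 17 in all. All 9 were measured and passed the filter on low values, so none is left out of the counts below. Liver RNA came from 65 male Sprague-Dawley rats of 6 weeks in 22 groups, 1 Affymetrix array per rat, to tell genotoxic from nongenotoxic liver carcinogens by expression. The genotoxic set (20 arrays) held rats given 2-AAF, 3MeDAB or DEN and its untreated GTX control. The nongenotoxic set (21 arrays) held rats given 1,4-Dioxane, Clofibrate or DL-Ethionine and its untreated NGTX control, and a test set (24 arrays) held rats given DCP, ME, SN or Urethane, with no control.

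Each compound had a short group, labelled 3 h, and a long group, labelled 72 h. The treatment protocol gives another timing, with repeated groups dosed 3 times and autopsy after 24 h, so the durations are called short and long here. The labels give test set doses without a unit (50 for DCP and SN, 300 for ME, 500 for Urethane, given 1 time in short and 3 times in long groups). They give no dose for the other compounds and no time for the controls. There were 3 rats in 21 groups and 2 in DEN short (rats 2 and 3). Each control group serves all 6 comparisons of its set, so those comparisons share its rats.

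In the adult liver these factors hold hepatocytes in their specialised state by binding each other's genes and the genes of plasma proteins and metabolic enzymes. Foxa1, Foxa2 and Foxa3 are forkhead pioneer factors that open chromatin, Onecut1 (HNF6) is a cut-homeodomain factor, and Hnf4a is the nuclear receptor at the centre of the network. Cebpa is the bZIP factor of metabolic and quiescent hepatocytes, Hhex and Prox1 are homeodomain factors needed for liver outgrowth, and Nr1h4 (FXR) is the bile acid receptor. Many of them are known to fall in injured or dedifferentiating hepatocytes.

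Every member value called in the long groups was lower than the control, and 8 of the 9 genes had at least 1 such call. Against their own set's control, 19 of 54 member values (9 genes in 6 long groups) were called, all 19 lower, or 35.2%, beside 26.6% of all gene values in the same comparisons. In the short groups 8 of 54 were called, 2 higher and 6 lower, or 14.8%, beside 7% of all gene values. A value was called at an adjusted p under 0.05 from a limma model fitted across all genes. Of the 27 long values of the genotoxic compounds 14 were called (51.9%), beside 34.9% of all gene values there. Of the 27 of the nongenotoxic compounds 5 were called (18.5%), beside 18.2%. The difference between the classes in these counts was not tested. Because the members were chosen with earlier results known, these shares describe them and do not test them as a set. All values below are log2 signals or log2 differences, and a fold is the difference taken out of the log scale.

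**Figure D1:**
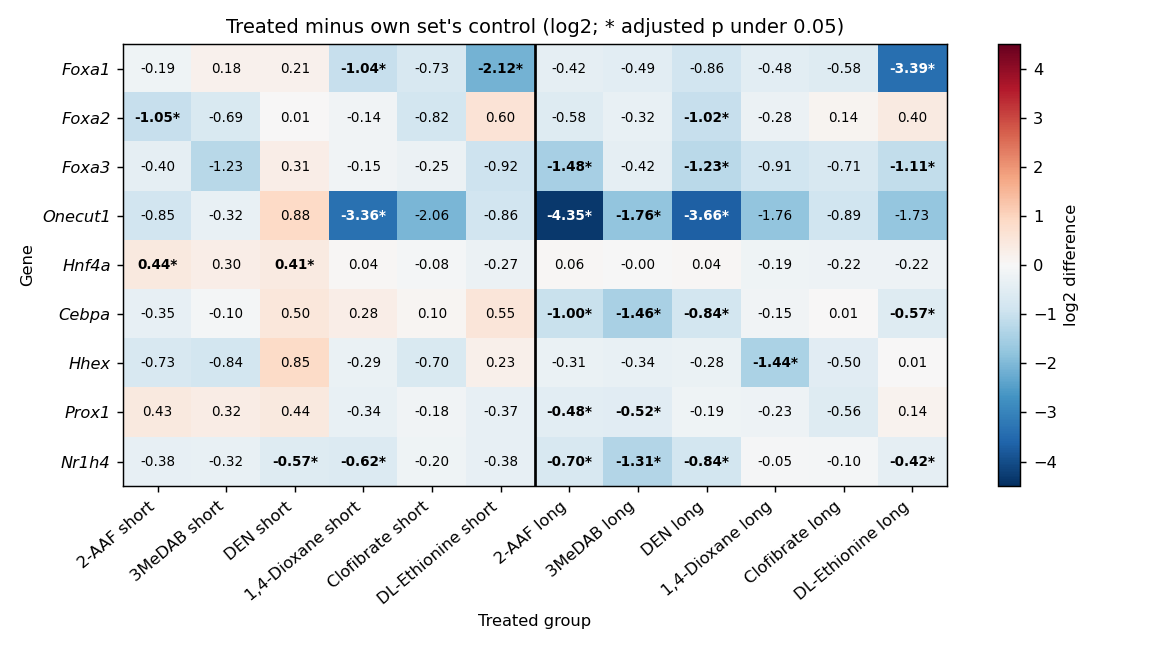
Log2 difference of each treated group from the control group of its own set for the 9 genes (rows), short groups left of the line and long groups right of it. An asterisk marks an adjusted p under 0.05: the 19 marked values on the right are all below 0, and the marked values of the left are 2 above and 6 below 0.

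Per compound, the count of members stands beside the share of all 10662 tested genes called. In the long groups 5 of 9 members were called for 2-AAF (33.1% of all genes), 4 for 3MeDAB (54.6%), 5 for DEN (17.1%), 4 for DL-Ethionine (54.2%), 1 for 1,4-Dioxane (0.169%) and 0 for Clofibrate (0.141%; by limma, with 1 member at an unadjusted p under 0.05). In the short groups 3 were called for 1,4-Dioxane (5.75%), 2 for 2-AAF (8.82%), 2 for DEN (18.1%), 1 for DL-Ethionine (5.38%), and 0 for Clofibrate (3%) and 3MeDAB (0.975%), with 4 and 5 members at an unadjusted p under 0.05. The median member difference was -0.84 in DEN long, -0.58 in 2-AAF long, -0.49 in 3MeDAB long and -0.42 in DL-Ethionine long. Over all genes the median was -0.00095 for DEN long, -0.0047 for 2-AAF long, 0.14 for 3MeDAB long and 0.04 for DL-Ethionine long.

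The arrays show liver: 12 hepatocyte products (albumin, apolipoproteins, clotting factors and others) had mean levels of 13.64 to 14.16 in every training group. These are bulk tissue values, in which fewer cells of a type and less RNA per cell cannot be told apart. The macrophage list went both ways in the long groups. In DL-Ethionine long 7 of 7 genes were higher (rat means 11.19 to 11.56, against 9.67 to 10.00 in the control). In 3MeDAB long 6 of 7 and in DEN long 5 of 7 were higher, but in 2-AAF long 5 of 7 were lower. The endothelial list was higher in DL-Ethionine long (5 of 6). Of 8 stellate cell and fibroblast genes, 3 were higher and 0 lower in DEN long (rat means 8.43 to 8.87, against 8.13 to 8.23 in the control), among them Dcn by 2.25 ± 0.43. In 3MeDAB long 3 of these 8 were higher and 2 lower, in 2-AAF long 3 higher and 3 lower, and in DL-Ethionine long 2 higher and 0 lower. Dcn was higher in these groups too, by 1.86 ± 0.43, 1.10 ± 0.43 and 2.51 ± 0.43 in that order. No collagen gene of the list was called higher in them or in DEN long. Of 2 leukocyte genes both were higher in DEN long, Ptprc by 1.33 ± 0.19 and Cd8a by 0.60 ± 0.15 (rat means 7.80 to 8.02, against 6.85 to 7.00). Both were lower in 2-AAF long, 1 was higher and 1 lower in 3MeDAB long, and 1 was higher in DL-Ethionine long. Biliary and progenitor genes also went both ways. Epcam was higher and Krt19 and Sox4 lower in 2-AAF long, and Epcam and Prom1 were higher in 3MeDAB long. In DL-Ethionine long Krt19 was higher and Epcam, Spp1 and Sox4 lower, and in DEN long no gene of that list was called. Hepatocyte products were called lower in the same groups, 6 of 12 in 2-AAF long (1 higher), 5 in 3MeDAB long (2 higher), 5 in DL-Ethionine long (1 higher) and 1 in DEN long. Their mean was 13.72 to 13.83 in 2-AAF, 13.64 to 13.67 in 3MeDAB and 13.89 to 13.94 in DEN long, against 13.96 to 13.98 in the control, and 13.81 to 13.91 in DL-Ethionine long against 14.10 to 14.13. Of all genes 33.1% were called in 2-AAF long, 54.6% in 3MeDAB long, 17.1% in DEN long and 54.2% in DL-Ethionine long. With both directions together, the share of hepatocyte products called was near or below these values except in 2-AAF long. The part of these cells and products in the members' falls was not tested.

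Rat 1 of both control groups stood apart in a score of core clock genes (the average log2 level of Npas2, Bmal1, Cry1 and Clock less that of Tef, Per3, Nr1d2, Nr1d1 and Dbp, with each set centred). It was -2.21 in GTX control rat 1 against 1.06 and 1.04 in rats 2 and 3, and -1.18 in NGTX control rat 1 against 1.16 and 1.02. Short nongenotoxic groups had mean scores of -2.04 to -1.61 and long ones of 1.29 to 1.92, so the score moved with duration there.

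Foxa1 fell most with DL-Ethionine. In DL-Ethionine long it read 5.74, 5.47 and 5.63 in the 3 rats, against 9.01, 8.85 and 9.14 in the NGTX control. The groups lay far apart, in a comparison where 63% of all genes did not overlap. The treated level was under 6.22, the filter level and median of the training table. The remaining signal was thus below the middle of the table's values. The difference was -3.39 ± 0.31 (SE; 10.5-fold lower; adjusted p = 1.51e-10, limma), and it stayed called under every alternative run. In DL-Ethionine short rat 1 read 7.996 while rats 2 and 3 read 6.23 and 6.41, all below the control (22.7% of all genes did not overlap there), for a difference of -2.12 ± 0.31 (adjusted p = 0.000231). That call was lost in a fit on only the arrays compared (adjusted p = 0.11). In 1,4-Dioxane short the values were 6.96, 8.71 and 8.20, a fall of 1.04 ± 0.31 (adjusted p = 0.0446) that rests on rat 1: without it the difference was -0.54 (adjusted p = 0.376). It was not called either without rat 3, when any 1 of the 3 control rats was left out, or under 6 of 10 alternatives.

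In the genotoxic set Foxa1 did not pass the test against control in any of 6 groups. The nearest was DEN long, with 8.10, 7.94 and 8.32 against 9.04, 8.93 and 8.97 in the GTX control (-0.86 ± 0.31, adjusted p = 0.0562). All 3 DEN long rats lay below all 3 controls, so the groups did not overlap there, as was so for 40.9% of all genes in that comparison. Group means of Foxa1 ran from 8.12 to 9.19 in the genotoxic set and from 5.62 to 9.002 in the nongenotoxic set. Compared with the mean of 1,4-Dioxane and Clofibrate long, a comparison added after the data were seen, Foxa1 in DL-Ethionine long was lower by 2.86 ± 0.27 (adjusted p = 1.57e-10, with 62.1% of all genes called).

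**Figure D2:**
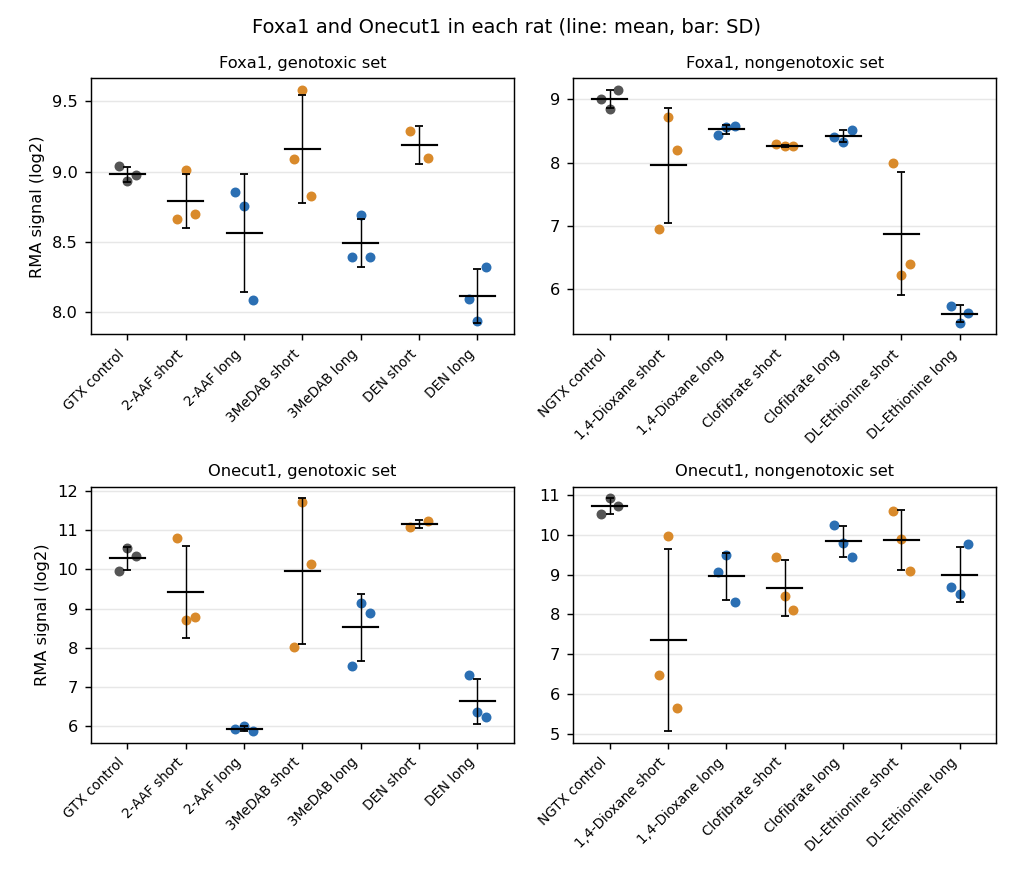
RMA signal (log2) of Foxa1 (top) and Onecut1 (bottom) in each rat (points; grey control, orange short, blue long), with the group mean (line) and SD (bar), genotoxic set left and nongenotoxic set right, each panel on its own scale. Foxa1 is lowest in DL-Ethionine long (mean 5.62) and Onecut1 in 2-AAF long (mean 5.93), whose 3 rats lie close together while other Onecut1 groups spread widely.

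The promoter of Foxa2 is shown because it holds the core of the Onecut motif, and Onecut1 is the member with the widest range here. The 250 bases before the RefSeq start (GRCr8) are printed 5′ to 3′, with motif matches in capitals, ATTGAT for Onecut and the TATA box letters TATAAA on either strand (overlapping matches run together).
Foxa2, chr3:155927509-155927758, minus strand: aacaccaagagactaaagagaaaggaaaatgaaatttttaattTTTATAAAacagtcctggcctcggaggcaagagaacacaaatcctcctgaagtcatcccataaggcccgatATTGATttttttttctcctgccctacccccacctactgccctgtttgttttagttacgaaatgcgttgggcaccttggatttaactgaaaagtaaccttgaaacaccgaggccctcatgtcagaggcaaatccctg
In Foxa2 the match ends 131 bases before the start. ATTGAT or its reverse complement ATCAAT occurs in 7.1% of 33469 such windows, so a match is a description and no evidence of binding.

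Foxa2 fell in 2-AAF short and in DEN long. In 2-AAF short it read 8.22, 8.86 and 8.93, against 8.99, 10.09 and 10.09 in the GTX control (-1.05 ± 0.29, adjusted p = 0.0198). In DEN long it read 8.70, 8.57 and 8.82 (-1.02 ± 0.29, adjusted p = 0.0119). Both ranges lie just under GTX control rat 1, the rat with the low clock score, which reads well below the other 2 controls. Of all genes 29.4% in 2-AAF short and 40.9% in DEN long did not overlap the control. The calls were lost without control rat 2 or control rat 3 (adjusted p up to 0.138 in 2-AAF short and 0.0834 in DEN long). The 2-AAF short call was also lost without 2-AAF rat 1 and in a fit on only the arrays compared (adjusted p = 0.118). In DL-Ethionine long, where Foxa1 had fallen 10.5-fold, Foxa2 read 10.39, 10.37 and 10.24, all above the NGTX control rats (9.41, 10.18 and 10.22, with no overlap for 63% of all genes). The Foxa2 difference was 0.40 ± 0.29 (adjusted p = 0.249, 95% interval -0.19 to 0.99).

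Foxa3 fell in 3 long groups. It read 6.89, 7.27 and 7.83 in 2-AAF long, against 8.74, 8.72 and 8.98 in the GTX control (-1.48 ± 0.36, adjusted p = 0.00181), and this call held under every alternative run. In DEN long it read 7.80, 7.502 and 7.46 (-1.23 ± 0.36, adjusted p = 0.0146, not called without DEN long rat 3 or control rat 3, up to 0.0585). Both genotoxic groups lay wholly below their controls (37.6% of all genes did not overlap in 2-AAF long and 40.9% in DEN long). In DL-Ethionine long it read 7.68, 7.89 and 8.29, against 7.98, 9.51 and 9.71 in the NGTX control (-1.11 ± 0.36, adjusted p = 0.0092), and here the groups overlapped because control rat 1 was low. Without NGTX control rat 2 or rat 3 that call was lost (adjusted p up to 0.0882). Foxa3 in 3MeDAB short read 7.91, 7.20 and 7.65, all below the controls, but was not called (-1.23 ± 0.36, adjusted p = 0.086). There 17.9% of all genes did not overlap the control.

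Onecut1 had the widest swings of the 9 genes and the widest spread between rats, with a group SD of up to 2.29. In the GTX control it read 9.96, 10.54 and 10.35, and in 2-AAF long 5.92, 5.99 and 5.87. All 3 treated rats were at a level below 6.22, and the difference was -4.35 ± 0.76 (20.5-fold lower; adjusted p = 6.08e-05). In DEN long it read 7.29, 6.36 and 6.22 (-3.66 ± 0.76, 12.6-fold lower, adjusted p = 0.000727). Both falls were called under every alternative run. The values of 7.53, 9.14 and 8.88 in 3MeDAB long gave a smaller fall of 1.76 (SE 0.76; adjusted p = 0.0493), not called without rat 1 or 3, when any 1 control rat was left out, or under 3 of 10 alternatives (adjusted p up to 0.209). Onecut1 in DL-Ethionine long read 8.70, 8.51 and 9.78, below the NGTX control (10.53, 10.92 and 10.74), and did not pass (-1.73 ± 0.76, adjusted p = 0.0545). Its second probe set, described below, was called lower there (-1.58). In that comparison 63% of all genes did not overlap the control.

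Among short groups Onecut1 was called in 1,4-Dioxane, where the rats differed most. They read 6.48, 9.96 and 5.65, so rat 2 was near the control while rats 1 and 3 were far below. The difference was -3.36 ± 0.76 (adjusted p = 0.00746). It was not called without rat 1 or rat 3 (up to 0.066), with the clock score as a covariate, or in a fit on only the arrays compared (up to 0.117). Clofibrate short (9.45, 8.46 and 8.10) was also wholly below the control without a call (-2.06 ± 0.76, adjusted p = 0.144). There 26.1% of all genes did not overlap the control. DEN short (11.09 and 11.23) was the highest group of the genotoxic set. The second Onecut1 probe set, 1387760_a_at, went the same way, from -2.59 in DEN long to 0.64 in DEN short, with 5 calls of 12, all lower. Among these were DL-Ethionine long (-1.58) and 3MeDAB long (-1.53).

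Hnf4a depended on the probe set read. The brightest, 1392969_at, which stands for the gene in the counts above, was nearly level at 12.20 to 12.66 over the training groups. It was higher in 2-AAF short (12.69, 12.56 and 12.72, against 12.26, 12.17 and 12.24; 0.44 ± 0.11, adjusted p = 0.0155) and in DEN short (12.57 and 12.69; 0.41 ± 0.13, adjusted p = 0.0234). All rats of both groups were above all controls. Of all genes 29.4% in 2-AAF short and 54% in DEN short did not overlap the control. Neither call held without GTX control rat 2. The 2-AAF call was also lost without 2-AAF short rat 1 or 3 (adjusted p up to 0.0784), and the DEN call without either DEN short rat (up to 0.217). With the mean of all 3 probe sets the 2-AAF value was not called (adjusted p = 0.515), and the DEN value turned to -0.16 (adjusted p = 0.548).

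The other 2 Hnf4a probe sets fell in 4 long groups where 1392969_at did not. Probe set 1382496_at read 6.44, 6.73 and 6.65 in DL-Ethionine long, against 8.65, 7.98 and 8.25 in the control. That is a difference of -1.69 ± 0.20 (adjusted p = 2.8e-08, over 18006 probe sets). It was also lower in 3MeDAB long by -0.99 ± 0.20, in 2-AAF long by -0.84 ± 0.20 and in DEN long by -0.75 ± 0.20. Probe set 1369289_at was called lower in the same 4 groups, from -1.05 ± 0.18 in DL-Ethionine long to -0.58 ± 0.18 in 3MeDAB long. In those groups 1392969_at differed from control by -0.22 ± 0.12 (adjusted p = 0.113) in DL-Ethionine and by 0.06 or less in the genotoxic ones. No probe set of Hnf4a was called in 1,4-Dioxane or Clofibrate long. The falling probe sets are dim. Their lowest training means, 6.45 (1369289_at, DEN long) and 6.605 (1382496_at, DL-Ethionine long), lie near the filter level of 6.22. Group means of 1392969_at were never below 12.20.

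**Figure D3:**
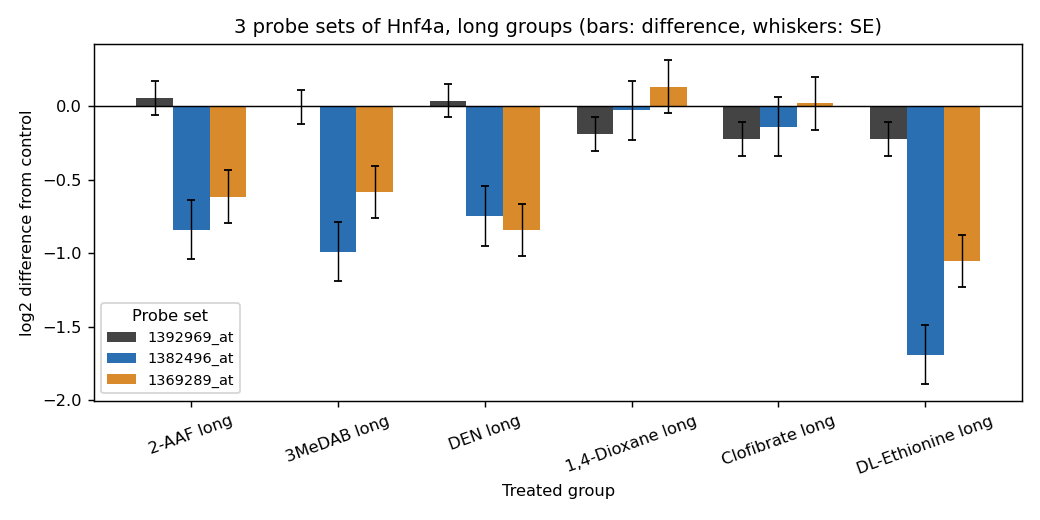
Log2 difference from control (bars, whiskers SE) of the 3 probe sets of Hnf4a in the 6 long groups. Probe sets 1382496_at and 1369289_at, which read near the filter level at their lowest, are below 0 in 2-AAF, 3MeDAB, DEN and DL-Ethionine long, to -1.69 at the lowest. The bright 1392969_at stays between -0.22 and 0.06.

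Hnf4a has 2 start sites in RefSeq, and both promoters are shown because its probe sets disagree. Whether a probe set reads transcripts of one start or the other is not given in the sources used here. The 250 bases before each start (GRCr8) carry an Onecut match (ATCAAT) in the upstream window and HNF1 core letters (GTTAAT or ATTAAC) in the downstream one, in capitals.
Hnf4a upstream start, chr3:172605970-172606219, plus strand: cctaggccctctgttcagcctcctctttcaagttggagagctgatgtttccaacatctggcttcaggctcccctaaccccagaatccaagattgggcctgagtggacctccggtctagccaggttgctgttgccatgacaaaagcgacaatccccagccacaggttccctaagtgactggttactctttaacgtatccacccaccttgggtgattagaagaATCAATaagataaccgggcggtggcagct
Hnf4a downstream start, chr3:172641586-172641835, plus strand: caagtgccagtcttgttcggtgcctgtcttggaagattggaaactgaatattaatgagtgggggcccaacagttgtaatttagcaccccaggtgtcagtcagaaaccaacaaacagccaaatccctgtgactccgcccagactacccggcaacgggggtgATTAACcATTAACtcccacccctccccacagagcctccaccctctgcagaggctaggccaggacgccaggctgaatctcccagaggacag
The Onecut match ends 24 bases before the upstream start. The paired HNF1 matches of the downstream window lie 90 to 78 bases before its start, and these letters occur in 6.45% of all windows. None of the 6 member windows held the forkhead letters TGTTTAC (3.21% of all windows) or the C/EBP letters TTGCNNAA (9.22%) on either strand.

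Cebpa fell in all 3 genotoxic long groups and in DL-Ethionine long. In the GTX control it read 11.04, 10.85 and 11.02, and in 3MeDAB long 9.60, 9.45 and 9.48. That fall, 1.46 ± 0.19 (2.75-fold; adjusted p = 1.36e-07), was the largest, with little spread between rats. It read 10.55, 9.80 and 9.57 in 2-AAF long (-0.998 ± 0.19, adjusted p = 0.000167) and 10.12, 10.22 and 10.06 in DEN long (-0.84 ± 0.19, adjusted p = 0.00178). These 3 calls held under every alternative run, and all 9 treated rats lay below all 3 controls. Of all genes 67.4% in 3MeDAB, 40.9% in DEN and 37.6% in 2-AAF long did not overlap the control. In DL-Ethionine long Cebpa read 10.30, 10.67 and 10.58, against 11.23, 10.96 and 11.07 (-0.57 ± 0.19, adjusted p = 0.0117). That call was lost with the clock covariate (adjusted p = 0.059) and without DL-Ethionine rat 1 or NGTX control rat 1 (up to 0.0709).

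All 5 Cebpa probe sets were called lower in 2-AAF, 3MeDAB and DEN long, by 0.48 at the least in 2-AAF long and 1.62 at the most in 3MeDAB long, and 4 of 5 in DL-Ethionine long. In 1,4-Dioxane and Clofibrate long none of the 5 was called, with differences of -0.15 to 0.35. In DL-Ethionine short Cebpa read 11.33, 11.96 and 11.61, above every control (22.7% of all genes did not overlap there), but was not called (0.55 ± 0.19, adjusted p = 0.0867), although 1 of its 5 probe sets was called higher. Its promoter, shown because all 5 of its probe sets were called lower in 3 of the long groups, holds the TATA box letters 30 bases before the start (GRCr8, 5′ to 3′, capitals), which 12.9% of all windows hold somewhere.
Cebpa, chr1:96896334-96896583, plus strand: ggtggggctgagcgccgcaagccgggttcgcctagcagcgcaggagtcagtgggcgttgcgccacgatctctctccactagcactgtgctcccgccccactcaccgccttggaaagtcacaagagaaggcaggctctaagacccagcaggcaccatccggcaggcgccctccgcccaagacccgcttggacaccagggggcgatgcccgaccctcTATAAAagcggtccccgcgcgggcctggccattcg

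**Figure D4:**
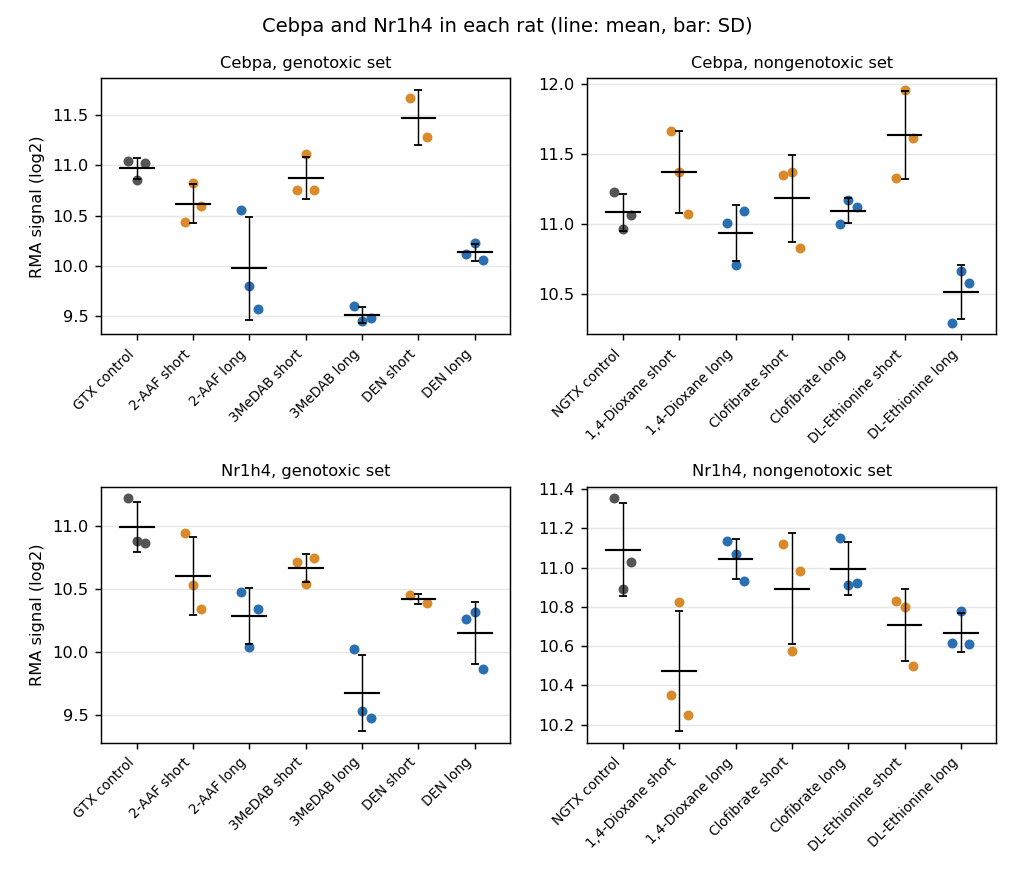
RMA signal (log2) of Cebpa (top) and Nr1h4 (bottom) in each rat (points; grey control, orange short, blue long), with mean (line) and SD (bar), genotoxic set left and nongenotoxic set right, each panel on its own scale. In the genotoxic set both genes are lowest in 3MeDAB long (means 9.51 and 9.67), and in the nongenotoxic set the long groups of 1,4-Dioxane and Clofibrate stay near the control.

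Hhex and Prox1, the homeodomain factors, were called against control in few groups. Between the long and short groups of a training compound Prox1 was called in 4 of 6 comparisons, 3 lower and 1 higher. Hhex was called in 1,4-Dioxane long, with 10.31, 10.03 and 9.56 against 11.16, 11.53 and 11.52 in the control (-1.44 ± 0.28, 2.71-fold lower, adjusted p = 0.0157). It was 1 of 18 genes called there of 10662, and the call was lost without 1,4-Dioxane rat 3 or control rat 2 or 3 (adjusted p up to 0.218). Hhex was lower there than in the mean of Clofibrate and DL-Ethionine long as well (-1.20 ± 0.24, adjusted p = 0.000321, 32.2% of all genes called), and this call held without any 1 rat. Its highest group was DEN short (11.86 and 12.57, 0.85 ± 0.32 above control, adjusted p = 0.0591).

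Prox1 fell by 0.52 ± 0.15 in 3MeDAB long (adjusted p = 0.00512), where it read 10.61, 10.62 and 10.56 against 10.87, 11.21 and 11.26. In 2-AAF long it read 11.05, 10.09 and 10.77 (-0.48 ± 0.15, adjusted p = 0.0165). Rat 1 of 2-AAF long overlapped the control, and the call was lost without 2-AAF rat 2 (difference -0.21, adjusted p = 0.279), without control rat 2 or 3, or in fits on fewer arrays (0.219). In DL-Ethionine long Prox1 read 11.73, 11.69 and 11.77, the highest group of its set, beside a control of 11.43, 11.55 and 11.77 (0.14 ± 0.15, adjusted p = 0.453). The other Prox1 probe set, 1381417_at, did not pass the filter.

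Nr1h4 was below its control in all 12 comparisons and called in 6, all lower, the most of any member. In 3MeDAB long it read 10.02, 9.53 and 9.47, against 11.22, 10.88 and 10.87 in the GTX control (-1.31 ± 0.17, 2.49-fold lower, adjusted p = 1.89e-07). In DEN long it read 10.26, 10.32 and 9.86 (-0.84 ± 0.17, adjusted p = 0.00069) and in 2-AAF long 10.48, 10.04 and 10.34 (-0.70 ± 0.17, adjusted p = 0.00234). These 3 groups lay wholly below the control. Of all genes 67.4% in 3MeDAB, 40.9% in DEN and 37.6% in 2-AAF long did not overlap it. These 3 Nr1h4 calls held under every alternative run. The other 3 calls were smaller and did not: DL-Ethionine long (10.61, 10.78 and 10.61 against 11.35, 10.89 and 11.03; -0.42 ± 0.17, adjusted p = 0.0402) was lost with the clock covariate (0.201). It was also lost without DL-Ethionine rat 1 or 3 or control rat 1 or 3 (up to 0.213). In 1,4-Dioxane short (10.35, 10.82 and 10.25) the difference was -0.62 ± 0.17 (adjusted p = 0.0307), lost without rat 1 or 3 or control rat 1 or 3 (up to 0.133). In DEN short (10.45 and 10.39) it was -0.57 ± 0.19 (adjusted p = 0.0388), lost without either rat or control rat 1 or 2 (up to 0.205).

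Genes around Nr1h4 in bile acid handling were described from a list of 9 tested genes, also chosen with earlier results of these data known. In 3MeDAB long 8 of 9 (88.9%, beside 54.6% of all genes) fell and 0 rose, with a list median of -1.25 beside 0.14 over all genes. Slc10a1, the bile acid uptake carrier, changed by -3.62 ± 0.33, and Nr0b2 (SHP), the FXR-induced repressor, by -3.16 ± 0.70. Cyp8b1, of bile acid synthesis, changed by -1.61 ± 0.31, and Abcb11, the canalicular bile salt export pump, by -1.37 ± 0.12. In DL-Ethionine long 7 of 9 were called (77.8%, beside 54.2%) and 6 fell, among them Slc10a1 (-3.23 ± 0.33) and Cyp27a1 (-2.20 ± 0.14), while Cyp7a1, the rate-limiting enzyme of bile acid synthesis, rose by 3.32 ± 0.94. In 2-AAF long 3 of 9 fell (33.3%, beside 33.1%), and in DEN long 1 (11.1%, beside 17.1%), Abcb11 (-0.34 ± 0.12, adjusted p = 0.0406). Those last 2 shares were near or below that of all genes. In 1,4-Dioxane and Clofibrate long 0 of 9 were called by limma, and none had an unadjusted p under 0.05.

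Genes known to be driven by HNF4A, C/EBP alpha, HNF6 or FOXA went both ways. Of 16 tested, 7 fell and 3 rose in 3MeDAB long, 7 fell and 6 rose in DL-Ethionine long, 6 fell and 0 rose in 2-AAF long, and 3 fell and 0 rose in DEN long. The shares called were 62.5%, 81.2%, 37.5% and 18.8%, beside 54.6%, 54.2%, 33.1% and 17.1% of all genes, so outside DL-Ethionine long they were close to the background. Cyp2c11, the male-specific cytochrome, changed by -5.26 ± 0.13 in 3MeDAB long, -3.35 ± 0.13 in DL-Ethionine long, -0.92 ± 0.13 in DEN long and -0.86 ± 0.13 in 2-AAF long. Pfkfb1, a bifunctional enzyme of glycolysis, changed by -3.01 ± 0.21, -2.17 ± 0.21, -1.26 ± 0.21 and -2.17 ± 0.21 in the same order. Apoa2, an apolipoprotein of HDL, changed by -2.52 ± 0.16, -1.54 ± 0.16, -0.74 ± 0.16 and -0.70 ± 0.16. Tat, tyrosine aminotransferase, rose by 2.44 ± 0.35 in DL-Ethionine long and 1.01 ± 0.35 in 3MeDAB long. No gene of this list was called by limma in 1,4-Dioxane or Clofibrate long, where 3 and 0 genes had an unadjusted p under 0.05.

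Other liver transcription factors moved in both directions too. In DL-Ethionine long 7 of 19 fell and 4 rose: Nr1i3 (CAR) fell by 3.63 ± 0.43, Tbx3 by 2.51 ± 0.36 and Atf5 by 1.58 ± 0.18, while Cebpb, the C/EBP of the acute phase, rose by 1.19 ± 0.18. In 3MeDAB long 5 fell and 2 rose, in DEN long 4 fell and 2 rose, and in 2-AAF long 3 fell and 2 rose. The shares called were 57.9% in DL-Ethionine, 36.8% in 3MeDAB, 31.6% in DEN and 26.3% in 2-AAF long, beside 54.2%, 54.6%, 17.1% and 33.1% of all genes. Onecut2, the paralog of Onecut1, fell in all 4 of these groups, by 1.68 ± 0.21 in 3MeDAB, 1.26 ± 0.21 in 2-AAF, 1.06 ± 0.21 in DL-Ethionine and 0.70 ± 0.21 in DEN long.

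The difference between the classes was tested as the mean effect of the 3 genotoxic compounds minus that of the 3 nongenotoxic ones, each against its own control. Its SE and adjusted p measure the spread between rats within groups, not that between the 3 compounds of a class. They hold for these compounds and not for a class at large. In long groups 2 of 9 members were called (12.1% of all genes), Cebpa at -0.86 ± 0.22 (adjusted p = 0.00927) and Nr1h4 at -0.76 ± 0.20 (adjusted p = 0.0115), both lower with the genotoxic compounds. The Nr1h4 value was not called without GTX control rat 1 or NGTX control rat 2 (up to 0.0533). In short groups 3 of 9 were called (5.65% of all genes), Foxa1 at 1.37 ± 0.37, Prox1 at 0.69 ± 0.18 and Hnf4a at 0.48 ± 0.13 (adjusted p = 0.0261, 0.0221 and 0.0301). In each the genotoxic mean effect was above the nongenotoxic one. For Foxa1 the genotoxic short means were 8.79 to 9.19 beside a control of 8.98. The nongenotoxic ones were 6.88 to 8.27 beside a control of 9.002, so the Foxa1 value came mostly from lower nongenotoxic groups. None of the 3 genes was called with the clock covariate (adjusted p up to 0.133) or without GTX control rat 1 or NGTX control rat 3 (up to 0.11). Foxa1 was not called without GTX control rat 2 or 3 or NGTX control rat 2 either, nor Prox1 without NGTX control rat 2, nor Hnf4a without GTX control rat 2 or 3, NGTX control rat 1 or DEN short rat 3 (up to 0.0857). On the mean of its probe sets Hnf4a had an adjusted p of 0.573. The short nongenotoxic groups had the low clock scores given above, and with that score as a covariate the differences were 1.35, 0.52 and 0.46.

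Long minus short groups of a compound, which share no control, gave 23 calls of 54, 20 lower and 3 higher, or 42.6% beside 31.6% of all gene values. In DEN 8 of 9 members were lower in the long group (30.8% of all genes), from Onecut1 (-4.54 ± 0.85, 23.2-fold, adjusted p = 0.000117) to Hnf4a (-0.37 ± 0.13, adjusted p = 0.0264), and for all 9 genes the rats did not overlap, as for 60.6% of all genes. DEN short has 2 rats. Without its rat 3 the 8 calls came down to Onecut1 and Cebpa, and without its rat 2 Hnf4a, Foxa1 and Foxa2 were not called (adjusted p up to 0.206). Hnf4a was also lost without DEN long rat 3 and Foxa1 without DEN long rat 2. In 2-AAF 5 were lower (36.8%), in 3MeDAB 4 lower and 1 higher (60.1%), in DL-Ethionine 2 lower and 1 higher (52.7%), in 1,4-Dioxane 1 lower and 1 higher (5.5%) and in Clofibrate 0 (3.55%, with 2 members at an unadjusted p under 0.05). Cebpa was lower in the long groups of DEN, 3MeDAB and DL-Ethionine by 1.34 ± 0.21, 1.36 ± 0.19 and 1.12 ± 0.19, all under every alternative run. DL-Ethionine had opposite calls for 2 members, Foxa1 lower (-1.26 ± 0.31) and Prox1 higher (0.51 ± 0.15, lost with the clock covariate, adjusted p = 0.703, and without DL-Ethionine short rat 2, 0.0511).

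The test set, which has no control, was compared within itself, each compound against the mean of the other 3 at the same duration. In short groups 10 of 36 member values were called (27.8%, beside 18.3% of all gene values), and in long groups 4 of 36 (11.1%, beside 14.9%). Foxa1 was lowest in DCP short, at 7.41, 6.88 and 6.93, below all 9 rats of the other short groups. Those lay between 7.55 and 8.24, and 26.3% of all genes did not overlap in that comparison. The difference was -0.91 ± 0.12 (adjusted p = 7.37e-06), called under every alternative run. In DCP long it read 8.16, 8.16 and 7.75, a rise over DCP short of 0.95 ± 0.15 (adjusted p = 4.92e-05).

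DCP short had 3 of 9 members lower (41.9% of all genes called). Onecut1 read 9.64, 6.97 and 6.14, against 11.62, 11.64 and 11.03 in Urethane short, and was lower than the mean of the other 3 by 2.48 ± 0.76 (adjusted p = 0.0136, not called without DCP short rat 2 or 3, up to 0.127). Rat 1 of DCP short lay within the other short groups. Cebpa, read there by probe set 1384127_at, was lower by 0.67 ± 0.21 (10.59, 10.48 and 9.72; adjusted p = 0.0164, lost without rat 3 at 0.188 and with the clock covariate at 0.138). The clock score of DCP short was 1.78, the highest of the test set. Of the other liver transcription factors 12 of 20 were lower and 1 higher in DCP short, with Tbx3 at -1.59 ± 0.26, Nr1i3 at -1.17 ± 0.18 and Onecut2 at -0.96 ± 0.12.

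DCP long had lower Hnf4a, at 11.64, 11.79 and 11.55, below all 9 rats of the other long groups (11.91 to 12.32, with no overlap for 23.3% of all genes). The difference was -0.50 ± 0.07 (adjusted p = 2.43e-05, 37.6% of all genes called), and each separate comparison with ME, SN and Urethane long was called as well, under every alternative run. Here 1392969_at moved while 1382496_at (-0.32 ± 0.14, adjusted p = 0.0855) and 1369289_at (-0.22 ± 0.11, adjusted p = 0.144) did not pass. Cebpa in DCP long was lower by 0.64 ± 0.21 (10.03, 10.61 and 10.80; adjusted p = 0.024, lost without rat 1 at 0.202 and with the clock covariate at 0.0509). In the same comparison 5 of 6 endothelial genes and 3 of 5 biliary and progenitor genes were higher. The mean level of the biliary list was 6.70 to 7.27 by rat, against 6.20 to 6.71 in the other long groups. That of the endothelial list was 8.31 to 8.35, against 7.53 to 8.08. Cd163 (0.83 ± 0.23) and the leukocyte gene Ptprc (0.95 ± 0.32) were called higher too, while the other macrophage genes were not called. Of the stellate cell genes Lrat was higher and Pdgfrb lower. The part of these genes in the Hnf4a and Cebpa values was not tested. Hnf4a in SN long (0.26 ± 0.07, adjusted p = 0.0387; 5.21% of all genes) and Urethane long (0.21 ± 0.07, adjusted p = 0.0479; 13.9%) was higher than in the other 3, which include DCP, and neither was called without DCP long rat 1 or rat 3. These 2 calls were lost in 8 and 9 of 12 omissions of 1 rat and on the mean of the probe sets (adjusted p = 0.752 and 0.562).

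Urethane short had 3 members higher and 1 lower (7.6% of all genes), and Foxa1, at 8.17, 8.14 and 8.24, was above all 9 other short rats (0.57 ± 0.12, adjusted p = 0.0069). Of all genes 3.66% did not overlap the other short rats in that comparison. Foxa3 there, at 8.40, 8.44 and 7.93, was below them (-0.62 ± 0.14, adjusted p = 0.0127, not called without Urethane short rat 3 at 0.0956). Onecut1 was higher by 2.66 ± 0.76 (adjusted p = 0.0401) and Cebpa by 0.72 ± 0.21 (adjusted p = 0.047), and leaving out any Urethane short rat ended both calls, which were lost in 9 and 7 of 12 omissions of 1 rat (up to 0.15 and 0.187). ME short had 1 member lower (9.23%), Nr1h4 at 9.41, 9.68 and 10.13 (-0.62 ± 0.16, adjusted p = 0.025, lost without ME short rat 1 or 2, up to 0.159, and under 2 of 9 alternatives, up to 0.197). Macrophage genes moved beside it, with Cd68 (0.85 ± 0.22, adjusted p = 0.0202) and Csf1r (0.92 ± 0.27, adjusted p = 0.0363) higher in ME short, 2 of 7 called. The mean of the list was 9.62 to 10.74 in ME short rats against 9.12 to 9.79 in the other short rats, and its part in the Nr1h4 value was not tested. SN short had 2 higher (14.3%), Foxa1 by 0.37 ± 0.12 (adjusted p = 0.0439) and Foxa3 by 0.46 ± 0.14 (adjusted p = 0.0346), and leaving out any SN short rat ended both, in 9 and 5 of 12 omissions in all (up to 0.143 and 0.152). For Urethane short and SN short the other 3 include DCP short, the lowest short group in Foxa1, Onecut1 and Cebpa. In the pairs of ME, SN and Urethane short none of these genes was called. No member was called by limma in ME long (2.97%), and none had an unadjusted p under 0.05.

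Foxa3 was lower in the long than in the short group of 3 of the 4 test compounds. It read 9.03, 9.18 and 8.98 in SN short and 7.69, 7.65 and 7.63 in SN long (-1.41 ± 0.17, adjusted p = 0.000457). In ME it read 8.71, 8.56 and 9.08 short and 7.77, 7.64 and 7.25 long (-1.23 ± 0.17, adjusted p = 0.000323), and in DCP 8.67, 8.87 and 8.75 short and 8.02, 7.89 and 7.35 long (-1.01 ± 0.17, adjusted p = 0.000145). The ranges did not overlap in these 3 compounds, nor did they for 48.9% of all genes in DCP, 31.5% in ME and 27.4% in SN. The Foxa3 calls held under every alternative run. For Urethane the difference was -0.46 ± 0.17 (adjusted p = 0.0855), and Foxa2 rose instead, from 7.78, 7.87 and 8.19 to 8.98, 9.45 and 9.16 (1.25 ± 0.30, adjusted p = 0.00932). Prox1 was lower in DCP long (-0.58 ± 0.09) and in SN long (-0.47 ± 0.09, lost on the mean of its probe sets with an adjusted p of 0.121). That mean takes in 1381417_at, whose test group means of 4.41 to 4.95 lie under the filter level of 5.65. In all 9 of 36 member values were called by duration, or 25%, beside 18.9% of all gene values (DCP 40%, ME 17%, SN 5%, Urethane 13.7%).

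**Figure D5:**
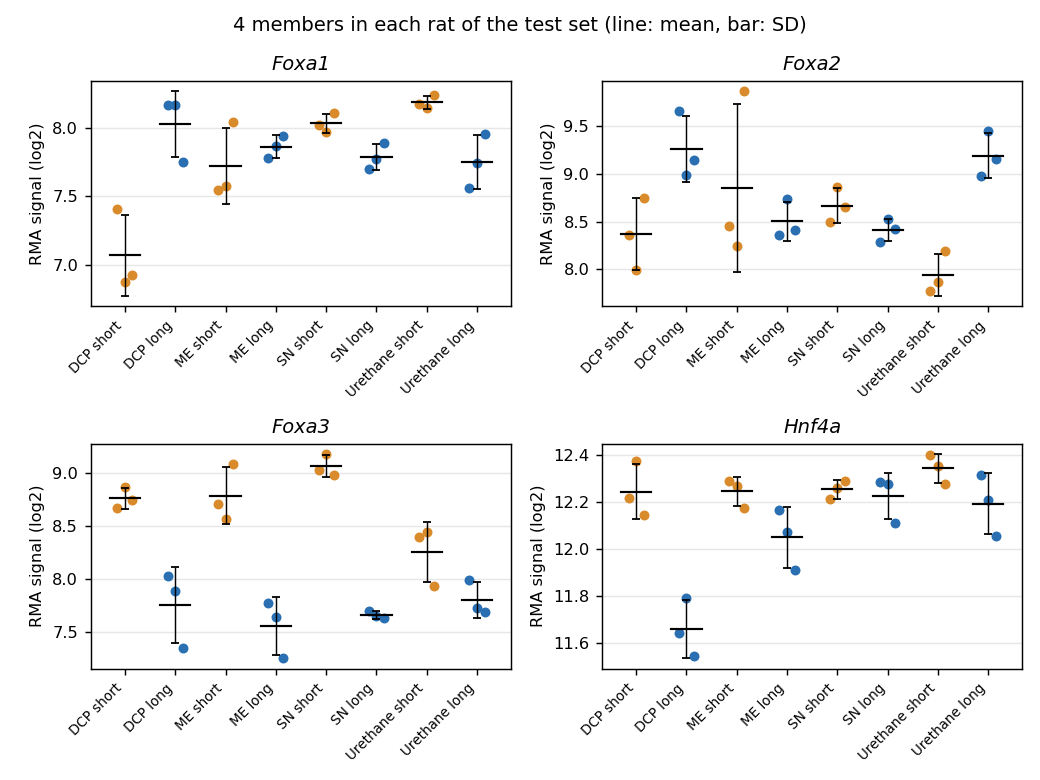
RMA signal (log2) of Foxa1, Foxa2, Foxa3 and Hnf4a in each rat of the test set (points; orange short, blue long), with mean (line) and SD (bar), each panel on its own scale. Foxa1 is low in DCP short (mean 7.07), Hnf4a in DCP long (mean 11.66), and Foxa3 is lower in every long group than in the short group of its compound, with adjusted p = 0.0855 for Urethane.

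Of 12 comparisons between pairs of test compounds at the same duration, 16 of 108 member values were called (14.8%, beside 17.9% of all gene values). DCP was in all but 1 of them, the exception being Foxa3, higher in SN than in Urethane short by 0.81 ± 0.17 (adjusted p = 0.0172, with 2.85% of all genes called, lost without SN short rat 2 or Urethane short rat 3, up to 0.0722). The labelled dose numbers differ between compounds except for DCP and SN, so only that pair has matched numbers. DCP short was lower than SN short in Foxa1 by 0.96 ± 0.15 (adjusted p = 5.21e-05, with 38.5% of all genes called), and DCP long was lower than SN long in Hnf4a by 0.57 ± 0.09 (adjusted p = 8.63e-05, with 30.5%). ME and SN were not called apart by limma for any member, with 4 members at an unadjusted p under 0.05 in short and 0 in long groups.

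Across the 22 groups the 9 genes did not move as a block. Over group means centred in each set, the correlation between 2 members had a median of 0.28 over 36 pairs and was above 0.5 for 2 pairs, Hnf4a with Prox1 (0.65) and Onecut1 with Cebpa (0.60). The lowest was Hnf4a with Foxa2 (-0.44). The points share controls, sets and arrays, so these are descriptions. The search for like genes took those tested in both sets whose group means had an SD of at least 0.5 of the member's own, which left 301 genes for Onecut1, 2059 for Foxa1, 4645 for Cebpa, 7961 for Nr1h4 and 8190 for Prox1. By the same measure the genes most like Onecut1 were LOC102549203 (0.89), Slc25a30 (0.79) and Socs2 (0.73), and those most like Foxa1 were Orai3 (0.88), Ccdc28a (0.85) and Inhbc (0.84). Cebpa was most like Sptssa (0.87), Slc43a1 (0.87) and Fam89a (0.84), Nr1h4 like Ppp2r3a (0.84), Hsd17b12 (0.80) and Fam210a (0.78), and Prox1 like Aspg (0.85), Aass (0.85) and Slc25a44 (0.81).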

How the data were processed

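Livers of 65 rats were hybridised to 1 Affymetrix array each. The authors standardised the raw files with RMA and deposited log2 signals, per the series' design text, after leaving out 1 failed array; the RMA version is not given in the sources used here. Titles call the rats of a group biological replicates. The 3 sets have different lowest values (3.23 to 3.31, 3.33 to 3.41 and 2.28 to 2.40 by array), so levels were compared within a set only.

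Of 31099 probe sets 20826 carried 1 gene symbol, 436 several and 9780 none (platform annotation, 0 symbols updated). A gene was read by its brightest probe set if above the table's median (6.22 in the training sets, 5.65 in the test set) in at least 2 arrays. limma 3.58.1 (R 4.3.3) fitted 1 mean per group over 41 training and 24 test arrays, with eBayes and Benjamini-Hochberg adjustment over 10662 or 10238 genes in each comparison (two-sided, threshold 0.05). No array pair was identical. The members and lists were chosen with earlier results of these data known. Genes outside the members were named from the lists (up to 4 of the largest called changes a comparison) or as the 3 most alike by correlation. Alternatives covered filters, probe sets, quantile normalization, moderation, the clock score, fewer arrays and single rats. Same-numbered rats did not deviate together (median correlation -0.01 to -0.001), so numbers were not used as pairs. Promoters came from RefSeq (GRCr8), which gave windows for 5 of the 9 members.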

Additional observations from a re-analysis of the deposited data

Results flagged for a closer look

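The following differences between durations or classes passed limma's test of the difference itself (adjusted p under 0.05). They are given as values (log2).

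Between the long and short groups of 2-AAF, Onecut1 differed by -3.50, Foxa3 by -1.08, Prox1 by -0.91, Cebpa by -0.65 and Hnf4a by -0.38. For 3MeDAB the values were -1.36 for Cebpa, -0.99 for Nr1h4, -0.84 for Prox1 and -0.31 for Hnf4a, while Foxa3 was higher by 0.81 (adjusted p = 0.0497, lost under 6 of 10 alternatives). For DEN they were -4.54 for Onecut1, -1.53 for Foxa3, -1.34 for Cebpa, -1.13 for Hhex, -1.07 for Foxa1, -1.03 for Foxa2, -0.62 for Prox1 and -0.37 for Hnf4a. These DEN values rest on a short group of 2 rats, with the limits given above. With DL-Ethionine Foxa1 differed by -1.26 and Cebpa by -1.12, and Prox1 was higher by 0.51, a call lost with the clock covariate. With 1,4-Dioxane Hhex differed by -1.15, and Nr1h4 was higher by 0.57 (adjusted p = 0.0485, lost under 6 of 10 alternatives).

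Between the genotoxic and nongenotoxic compounds, Foxa1 differed by 1.37, Prox1 by 0.69 and Hnf4a by 0.48 in short groups. As given above, none of these short calls held with the clock covariate or without certain single control rats. In long groups Cebpa differed by -0.86 and Nr1h4 by -0.76, the Nr1h4 call being lost without certain single control rats. These class tests measure the spread between rats, not between compounds.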

How the results depend on the processing

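Of 116 called member values 48 stayed called, with the same sign, under every alternative and omission run. With the clock score as a covariate 25 of 116 were lost, and in fits on only the arrays compared 26. The other full-table alternatives cost 0 to 13 each, and the fit with the replicate block, whose numbers do not pair the rats, cost 5. The 1 reversal was Hnf4a in DEN short, -0.16 on the mean of all probe sets. Counts of called members that moved by over 1.5 times were the class difference in long groups (4 in the fit on only the groups compared) and short groups (0 with the clock covariate). In the test set the long groups had 2 on the mean of probe sets and 2 with no filter, and the short groups had 6 with only the groups compared. Leaving out 1 rat at a time gave 3 to 14 calls in short groups against control, 15 to 21 in long groups, 15 to 25 for long minus short, 0 to 4 and 1 to 3 for the class in short and long groups. In the test set it gave 5 to 11 in short, 2 to 5 in long, 13 to 24 for pairs and 8 to 12 for long minus short, and 18 to 31 for 1 training compound against the other 2. The causes were not tested. A fold into Foxa1 or Onecut1 signals below the filter level is limited by signal over background.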

Other observations

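Each training compound was also set against the mean of the other 2 of its class at the same duration, a comparison without controls added after the data were seen. Of 108 member values 22 were called (20.4%), beside 24.2% of all gene values, so the share was near the background. The 4 calls below were chosen after their values were seen, from comparisons in which 51.8% (3MeDAB long), 17.2% (DEN short) and 62.1% (DL-Ethionine long) of all genes were called. Onecut1 in 3MeDAB long was higher than in 2-AAF and DEN long by 2.24 ± 0.66 (adjusted p = 0.00534, limma), and all 3 of its rats were above all 6 others (31.9% of all genes did not overlap there). Hhex in DEN short was higher than in the other 2 genotoxic short groups by 1.63 ± 0.28 (adjusted p = 0.000115), with rats at 11.86 and 12.57. Hhex and Prox1 in DL-Ethionine long were higher than in the other 2 nongenotoxic long groups by 0.98 ± 0.24 (adjusted p = 0.000866) and 0.54 ± 0.13 (adjusted p = 0.000779). These 4 calls held under every alternative and omission run.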
